A study of Caenorhabditis elegans with 2 samples.

Results

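The genes described here encode the nuclear pore complex of the nematode Caenorhabditis elegans and the soluble factors that carry cargo through it. They were taken by name from the protein-coding genes of Ensembl release 115 on assembly WBcel235, which is the same sequence as ce11, as all genes called npp-, imb-, ima- or xpo- together with ran-1 to ran-5. The rule gave 40 of 19973 protein-coding genes, namely 26 nucleoporin genes and 14 genes of transport receptors and the Ran cycle. The naming rule uses no measured value, but the members were chosen with earlier results of these data known. The question put to the data was where the transcription factor ZTF-4 was found near the 5' ends of these genes.

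ZTF-4 was mapped by ChIP-seq, in which DNA bound to a protein is precipitated with an antibody, sequenced and placed on the genome. The samples were whole L1 larvae, the stage at hatching, of pooled males and females, all of strain OP322. Every animal carried the unc-119(ed3) III allele and wgIs322, an insertion that encodes ZTF-4 with an eGFP tag, so no group without the insertion was present. There was 1 group with 2 biological replicates, the antibody field names ztf-4 without saying whether the tag or the protein itself was recognised, and the control used by the authors for calling was not analysed here.

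The authors deposited a relaxed list of regions for each replicate and for the pooled replicates, and a stricter list made with the irreproducible discovery rate (IDR), a measure of how far the ranks of regions agree between replicates. The lists in ce11 held 27643 regions in replicate 1, 27140 in replicate 2, 23044 in the pooled replicates and 1898 in the IDR list, and the IDR peaks were the 1898 pooled regions of highest signal. The signal is the caller's own height of a region as the authors deposited it, and it was ranked within 1 list only. No read counts are given in these lists, so the depth behind a value is unknown. Whole larvae were used, so a region shows occupancy somewhere in the animal, and the cell type cannot be told.

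The nuclear pore complex is a channel through the nuclear envelope built of stacked protein rings. Outer and inner rings form the scaffold, phenylalanine-glycine proteins fill the centre, and further proteins form filaments on the cytoplasmic face and a basket on the nuclear face. Importins and exportins recognise cargo by its localisation signals and cross the channel, and the GTPase Ran, loaded with GTP inside the nucleus and emptied of it outside, sets the direction in which they load and release. In dividing worm embryos the envelope and its pores are taken apart and rebuilt at each mitosis.

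For each gene a promoter window was set that reached 1000 bp upstream and 200 bp downstream of the annotated 5' end, and the region of highest signal with its summit, the position of greatest signal, in that window was taken. Positions are given from the 5' end, negative upstream. Many worm transcripts are trans-spliced, and for them the annotated 5' end need not be the base where transcription starts. The following stretches were read from the RefSeq genome of WBcel235 on the strand of the named gene, 5' to 3'. Each spans 75 bases to either side of a summit, less any bases of an annotated UTR. They come from regions of inner ring, outer ring, Ran cycle and importin alpha genes to which the values below refer. The regions of npp-3, npp-8, npp-18 and ran-5 are IDR peaks, and those of ran-1 and ima-1 are in the relaxed pooled list only. The strongest member region, that of imb-3, is not printed. Capitals mark the 5 short words described further on, which were chosen for being more frequent at ZTF-4 summits than in their flanks. The windows are II:11874789-11874898 for npp-3, IV:1595938-1596088 for npp-8, III:13296625-13296775 for npp-18, II:6047788-6047938 for ran-5, III:10748113-10748263 for ran-1 and V:11239332-11239474 for ima-1.
npp-3: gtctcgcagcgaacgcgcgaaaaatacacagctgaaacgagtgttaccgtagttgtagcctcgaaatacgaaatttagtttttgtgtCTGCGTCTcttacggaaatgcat
npp-8: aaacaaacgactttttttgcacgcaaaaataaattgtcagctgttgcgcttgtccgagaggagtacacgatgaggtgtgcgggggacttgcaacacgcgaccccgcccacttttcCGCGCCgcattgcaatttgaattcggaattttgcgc
npp-18: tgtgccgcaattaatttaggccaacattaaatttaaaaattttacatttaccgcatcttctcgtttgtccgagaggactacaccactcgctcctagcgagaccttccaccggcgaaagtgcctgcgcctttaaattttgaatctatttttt
ran-5: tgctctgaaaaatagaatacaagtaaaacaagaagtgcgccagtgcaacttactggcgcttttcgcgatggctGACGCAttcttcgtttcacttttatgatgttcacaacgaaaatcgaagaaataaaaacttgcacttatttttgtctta
ran-1: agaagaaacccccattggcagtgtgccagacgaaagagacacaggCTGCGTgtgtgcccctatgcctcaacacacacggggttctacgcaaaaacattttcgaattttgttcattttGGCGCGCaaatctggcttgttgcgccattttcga
ima-1: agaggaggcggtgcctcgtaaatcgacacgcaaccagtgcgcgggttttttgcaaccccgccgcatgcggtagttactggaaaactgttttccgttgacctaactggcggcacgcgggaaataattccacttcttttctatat

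ZTF-4 was found at the promoters of 8 of the 40 pore and transport genes (20%) in the IDR list, against 1213 of all 19973 protein-coding genes (6.07%). They were the inner ring genes npp-3, npp-8 and npp-13, the outer ring gene npp-18 and the cytoplasmic side gene npp-14. Among the transport factors they were the importin genes imb-1 and imb-3 and the Ran-binding protein gene ran-5. A further 22 genes had only a region of the relaxed pooled list, so that 30 of 40 (75%) had a region of some kind, against 6511 of all genes (32.6%), and 10 had none. Nucleoporin genes had IDR peaks in 5 of 26 cases (19.2%) and transport factors in 3 of 14 (21.4%). These shares are descriptions, and no test was attached to them, since neighbouring genes can share a region and genes are not replicates of the larvae.

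**Figure D1:**
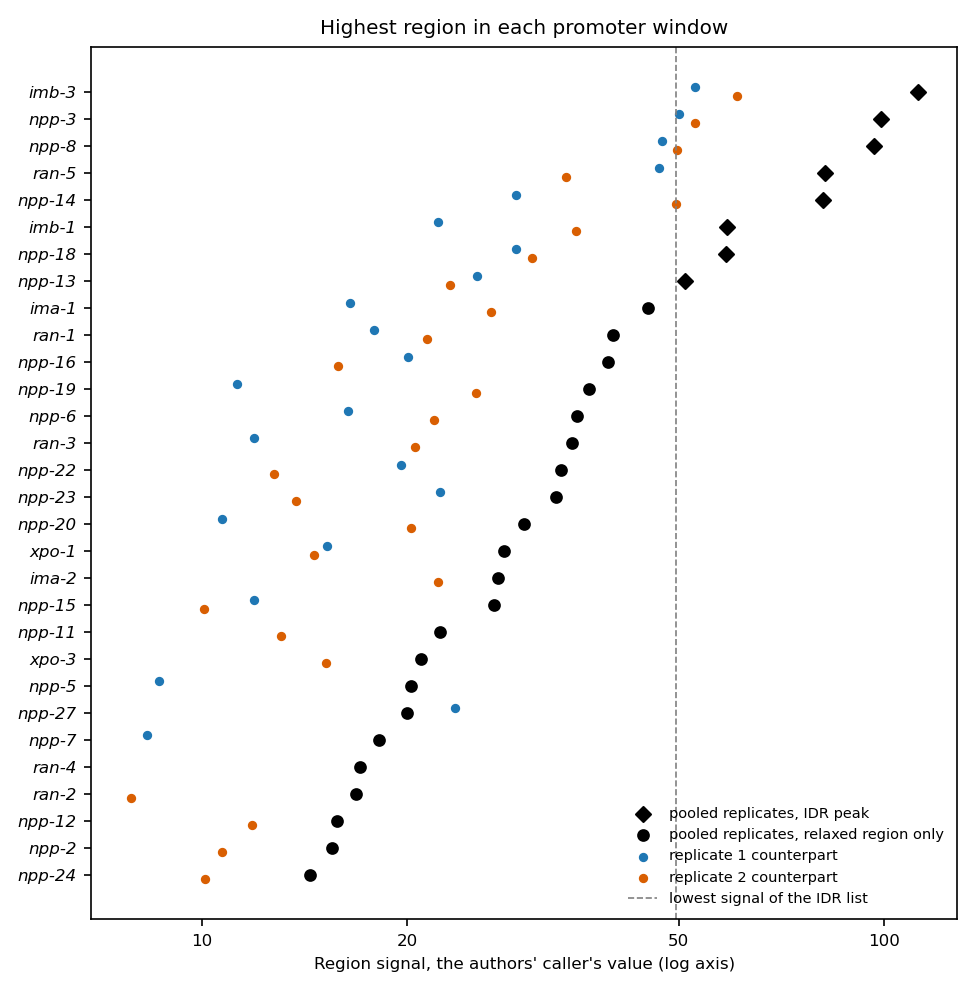
Signal of the highest region in the promoter window of each of the 30 genes with a pooled region, on a log axis, with 1 row per gene. Diamonds are IDR peaks and circles relaxed regions of the pooled replicates, small blue and orange points are the counterparts in replicate 1 and replicate 2, and the dashed line is the lowest signal of the IDR list (49.6). The pooled signals run from 112 at imb-3 to 14.4 at npp-24, with the widest step between npp-14 (81.4) and imb-1 (58.9). The npp-13 region (51.05) is just above the line and that of ima-1 (45.1) just below it.

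The inner ring, which anchors the pore scaffold to the membrane and the central channel, had IDR peaks at 3 of its 4 genes. Over the 40 members the share was 20%, and over all protein-coding genes 6.07%. The median signal over the 4 was 73.9, against 33.3 over all 30 genes with a region. The npp-3 gene, counterpart of vertebrate NUP205, had a pooled signal of 99.1 (rank 498) at II:11874648-11874997, with 50.1 in replicate 1 and 52.8 in replicate 2. Its summit lay at −35 bp, the closest of the 8 to the 5' end of the member gene itself.

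The npp-8 gene, counterpart of vertebrate NUP155, reached nearly the same height. Its region at IV:1595838-1596187 had a pooled signal of 96.7 (rank 529), with 47.2 in replicate 1 and 49.7 in replicate 2. Its summit lay at −189 bp, and no other protein-coding gene had it in a window. Both replicates ranked these regions of npp-3 and npp-8 among their 605 strongest.

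The remaining inner ring genes had lower regions. The npp-13 region, for the counterpart of vertebrate NUP93, had a pooled signal of 51.05, with 25.3 in replicate 1 and 23.1 in replicate 2, and its summit lay at −257 bp. With rank 1796 of 1898 it was near the end of the IDR list, and it ranked 2151 in replicate 1 and 2374 in replicate 2. The npp-19 gene, counterpart of vertebrate NUP53, had a relaxed region only, of pooled signal 37.0, with 25.2 in replicate 2 and 11.2 in replicate 1. The npp-19 summit was at −173 bp, and the gene had a second, weaker pooled region in its window.

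The outer ring, or Y complex, coats both faces of the pore and was covered broadly but at lower height. Of its 8 genes, npp-18 had an IDR peak, 6 had a relaxed region only and npp-10 had none. The npp-10 gene is the counterpart of the gene of the joint precursor of NUP98 and NUP96 in vertebrates. The IDR share of 12.5% compares with 20% of the 40 members and 6.07% of all protein-coding genes. For any pooled region the shares were 87.5% of the outer ring, 75% of the members and 32.6% of all genes. The npp-18 gene, counterpart of vertebrate SEH1, had a pooled signal of 58.7 (rank 1399) at III:13296525-13296874, with 28.8 in replicate 1 and 30.4 in replicate 2. Its summit lay at −153 bp in intergenic sequence. The relaxed genes were npp-2, npp-5, npp-6, npp-15, npp-20 and npp-23, the counterparts of vertebrate NUP85, NUP107, NUP160, NUP133, SEC13 and NUP43, and their signals ran from 15.5 at npp-2 to 35.4 at npp-6.

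Within the outer ring the replicates differed from gene to gene. The npp-6 region had signals of 16.3 in replicate 1 and 21.9 in replicate 2, and its summit, at −400 bp, lay in an intron of the divergent gene spd-5, which encodes a centrosome scaffold protein. The npp-2 region had 10.7 in replicate 2 and no counterpart within 100 bp in replicate 1. The npp-20 gene had no IDR peak in its window, but an IDR summit of signal 53.7 lay at −1608 bp, between the limits of the 1000 bp window and of a wider one.

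The phenylalanine-glycine proteins of the central channel had the fewest regions among the pore layers with 3 genes or more. The npp-11 gene, counterpart of vertebrate NUP62, had a pooled signal of 22.3, and its summit, at −984 bp, was the farthest upstream of all 30 and close to the edge of the window. Its partners npp-1 and npp-4, counterparts of NUP54 and NUP58, had no pooled region. In the npp-1 window replicate 1 alone listed a region of 9.94, low in a list whose median was 11.1.

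On the cytoplasmic side, the npp-14 gene had the strongest region. Its vertebrate counterpart NUP214 lies on the cytoplasmic face, where messenger RNA leaves the pore. The npp-14 region had a pooled signal of 81.4 (rank 758), and its signals were 49.5 in replicate 2 (rank 527) and 28.8 in replicate 1 (rank 1672), with the summit at −270 bp. This was the widest gap between the replicates among the 8 IDR peaks, a ratio of 1.72. The npp-24 gene, counterpart of vertebrate NUP88, which binds NUP214, had the weakest region of all 30 (14.4, with 10.1 in replicate 2), in an intron of npp-24 at 177 bp downstream of the 5' end. The npp-9 gene, counterpart of vertebrate NUP358, had no region in any of the 4 lists.

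The nuclear basket and the membrane proteins of the pore had relaxed regions at best. Of the basket genes, npp-16 (counterpart of vertebrate NUP50) had a pooled signal of 39.4, with 20.1 in replicate 1 and 15.8 in replicate 2, and its summit lay at −50 bp. The basket gene npp-7 (NUP153) had a weaker region and npp-21 (TPR) none. Of the membrane proteins, npp-22 (NDC1) and npp-12 (gp210) had relaxed regions of 33.6 and 15.8, and npp-25 (TMEM33) had no pooled region. The npp-22 summit fell in the 3' UTR of spe-42, a gene on the same strand that ended 67 bp before npp-22. For npp-27, with a relaxed region, and npp-26, with none, no role is given.

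Among the importers of the beta family, which bind cargo directly or through importin alpha, imb-3 had the highest signal of all 40 genes. The imb-3 gene, counterpart of vertebrate importin 5, an importer of ribosomal proteins and histones, had a pooled signal of 112 (rank 388) at I:315072-315421, with 52.8 in replicate 1 and 60.9 in replicate 2, and its summit lay at −258 bp. The imb-1 gene, counterpart of importin beta itself, had a pooled signal of 58.9 (rank 1388) at I:4926411-4926760, with 35.3 in replicate 2 (rank 1066) and 22.2 in replicate 1 (rank 2787), and its summit lay at −100 bp. In both replicates imb-3 had the higher signal of these genes, and imb-2, the transportin gene, had no region in any list.

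The importin alpha genes, whose products join the classical import signal to importin beta, had no IDR peak. Among the members without an IDR peak, ima-1 came closest to the threshold, with a pooled signal of 45.1 (rank 2235), against a lowest signal of 49.6 in the IDR list. In replicate 2 the ima-1 region had a signal of 26.6 and rank 1850, within the 1898 strongest of that list, while in replicate 1 it had 16.5 and rank 5364. The ima-2 gene had 27.1, with a counterpart in replicate 2 only. The ima-3 gene had no pooled region, and a region of 9.25 in replicate 1.

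The exportin genes stood lower still. The xpo-1 gene encodes the counterpart of CRM1, the exporter of proteins with leucine-rich signals, and had a relaxed region of 27.8, with 15.3 in replicate 1 and 14.6 in replicate 2. The xpo-3 gene, counterpart of the tRNA exporter exportin t, had 20.9, with its summit in an exon of the non-coding RNA gene C49H3.14. The xpo-2 gene, counterpart of CAS, which returns importin alpha to the cytoplasm, had no pooled region. It is the neighbour upstream of imb-3 on the same strand, and its closest IDR summit was that of imb-3, 8105 bp from its 5' end.

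All 5 Ran cycle genes had a pooled region, against 75% of the 40 members and 32.6% of all protein-coding genes. The ran-5 gene, counterpart of vertebrate RanBP3, a cofactor of CRM1 export, was the only IDR peak among these 5. It had a pooled signal of 82 (rank 745) at II:6047688-6048037. Its signals were 46.8 in replicate 1 (rank 620) and 34.1 in replicate 2 (rank 1148), the reverse of the order at npp-14 and imb-1. The ran-5 summit, at −246 bp, lay in a coding exon of the divergent gene R12C12.6, 4 bp downstream of its 5' end, and within 200 bp of the non-coding RNA gene R12C12.13. It was the only member IDR summit outside intergenic sequence.

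The other Ran genes had relaxed regions of 16.8 to 40.1. The highest was at ran-1, the gene of Ran itself, with a pooled signal of 40.1, 21.4 in replicate 2 and 17.9 in replicate 1, at −460 bp. The ran-3 gene, counterpart of the nucleotide exchange factor RCC1, had 34.9. The summits of ran-2, counterpart of RanGAP, and ran-4, counterpart of NTF2, which carries Ran back into the nucleus, lay in coding exons of these genes, 178 and 166 bp downstream of the 5' end. The ran-4 region was the only one of the 30 with a counterpart in neither replicate.

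In both replicates the 8 IDR peaks had counterparts, none with a summit more than 39 bp from the pooled one, and of all 1213 genes with an IDR peak 96.4% had both. Their ratios between the replicates ran from 1.05 at npp-3 to 1.72 at npp-14, and 6 were higher in replicate 2 and 2 in replicate 1. These ratios use the signals as deposited, from lists with medians of 11.1 in replicate 1 and 10.5 in replicate 2, and were not adjusted for scale. The IDR peaks were the pooled regions of highest signal, and the pooled list was made from the same 2 replicates. This recurrence is therefore not an independent measure of agreement. Of the 22 relaxed-only regions, 11 had counterparts in both replicates, 7 in replicate 2 alone, 3 in replicate 1 alone and 1 in neither. Over all 30 genes the share with both was 63.3%, against 47.1% of the 6511 genes. Across the 19 member regions found in both replicates the signals had Spearman's rho 0.69, and across 3068 regions over all genes 0.73, as descriptions of points that come from the same libraries.

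**Figure D2:**
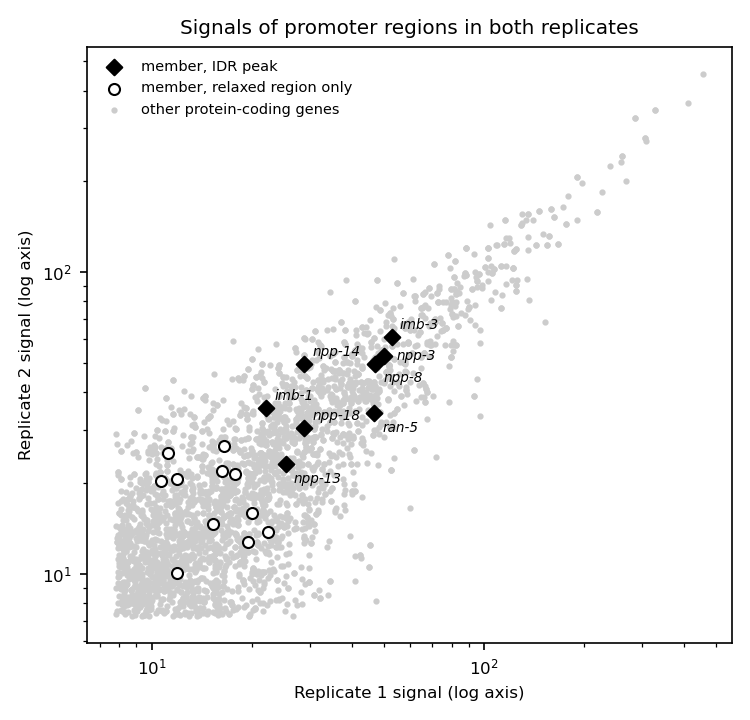
Signal in replicate 1 (x axis) and replicate 2 (y axis), both log, of the highest pooled region in each promoter window that had a counterpart in both replicates. Black diamonds are the 8 IDR peaks of pore and transport genes, open circles the 11 relaxed regions of such genes, and grey points other protein-coding genes. The peaks of imb-3, npp-3 and npp-8 sit close to equal signals, npp-14 and imb-1 above, ran-5 below.

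No pooled region was found in 10 windows, those of npp-1, npp-4, npp-9, npp-10, npp-21, npp-25, npp-26, ima-3, imb-2 and xpo-2. In 6 of them (npp-4, npp-9, npp-10, npp-21, npp-26 and imb-2) neither replicate listed a region either. In the other 4 a replicate listed a weak one, between 8.23 and 10.6. The closest IDR summit to these 10 genes was 7614 bp away at the nearest and 75576 bp at the farthest, with a median of 14887.5 bp. Absence from these lists says only that the authors' calling reported no region there, not that ZTF-4 was absent. No IDR summit lay inside any member gene beyond its promoter window.

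The 8 IDR summits all lay upstream of the genes. They were between −270 and −35 bp with a median of −217.5 bp, against −246 bp over the 1213 genes, and 7 of 8 (87.5%) fell 300 to 100 bp upstream, against 41.2%. Over all 30 genes with a pooled region the median was −249.5 bp, against −257 bp over the 6511, and 15 (50%) fell in that band, against 29.0%. The band was not among the planned measures of distance, which were the values, their range and their median. Its limits lie near the outermost of the 7 summits in it, at −270 bp for npp-14 and, on the edge itself, −100 bp for imb-1. The share in the band is therefore no separate support for a difference in position. Of the 22 relaxed-only summits 19 were upstream and 3 downstream, the downstream ones at npp-24, ran-2 and ran-4. The median signal was 81.7 over the 8, against 78.3 over the 1213, and 33.3 over the 30, against 23.95 over the 6511.

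A region in a shared promoter cannot be given to 1 gene. Pore and transport genes often face a neighbour on the opposite strand, and 25 of 40 (62.5%) had such a neighbour upstream within 2000 bp, against 29.0% of all genes. Of the 8 IDR summits, 4 (50%) also lay in another gene's window, against 48.3% of the 1213. For npp-3 the neighbour was top-2, which encodes topoisomerase II, and the summit lay at −325 bp from top-2. For npp-14 it was cel-1, the gene of the messenger RNA capping enzyme, at −66 bp, and for imb-1 it was mfsd-13.1 at −49 bp, each closer to the neighbour than to the pore or importin gene. For ran-5 it was R12C12.6. All 4 neighbours were on the opposite strand.

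Sharing was also frequent among the relaxed regions. Of the 22, 14 lay in another window as well, so that 18 of 30 (60%) were shared, against 29.5% of the 6511. They included ima-1, whose summit lay at −68 bp from dvc-1 and at −276 bp from ima-1 itself, ran-1 with dkc-1, the dyskerin gene (−241 bp), and npp-16 with ndab-1 (−166 bp). Among genes with a close divergent neighbour, 5 of 25 members (20%) had an IDR peak, against 10.5% of 5802 genes, and among genes without one 3 of 15 (20%), against 4.24% of 14171. For pooled regions the shares were 80% of 25, against 38.4%, and 66.7% of 15, against 30.2%. In both arrangements the member share was above that over all genes.

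**Figure D3:**
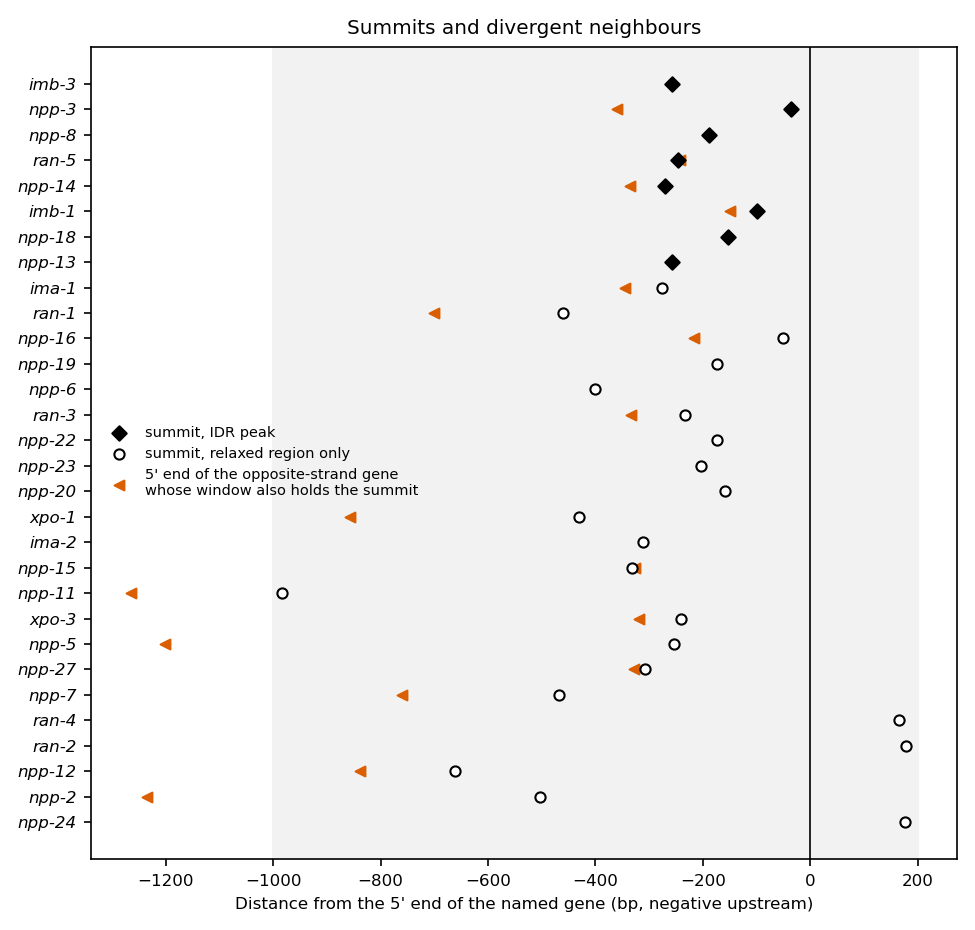
Distance in bp of each of the 30 summits from the 5' end of the named gene, with 1 row per gene, IDR peaks in the upper 8 rows and the promoter window shaded. Triangles mark the 5' end of an opposite-strand gene whose window holds the same summit. Except for npp-3, the IDR summits lie between −270 and −100 bp, and those of npp-14, imb-1 and ran-5 are nearer to the triangle than to 0, that of ran-5 lying 4 bp from it.

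The count of members depended on how regions were chosen and given to genes, and each count is read against all genes under the same rule. With as many of the strongest regions of replicate 2 alone, 8 members were called (all genes 6.06%), with ima-1 gained and npp-13 lost. With replicate 1 alone 6 were called (all genes 5.53%), with imb-1 and npp-13 lost. The 949 strongest IDR peaks left 5 (all genes 3.41%), namely imb-3, npp-3, npp-8, ran-5 and npp-14. In a narrow window of 300 bp upstream and 100 bp downstream all 8 remained, while the share of all genes fell to 3.6%.

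Other rules for the gene moved the count in both directions. A wide window of 2000 bp upstream and 500 bp downstream gave 9 (all genes 8.17%), with npp-20 added. Taking the 5' end of any transcript gave 8 (all genes 6.6%), and so did any overlap of region and window (all genes 6.55%). Giving each peak to the nearest 5' end alone, at any distance and without a window, left 5 (12.5%, all genes 7.74%). The peaks of imb-1, npp-14 and ran-5 went to their neighbours. Leaving out shared peaks left 4 (10%, all genes 3.15%), namely imb-3, npp-8, npp-13 and npp-18.

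**Figure D4:**
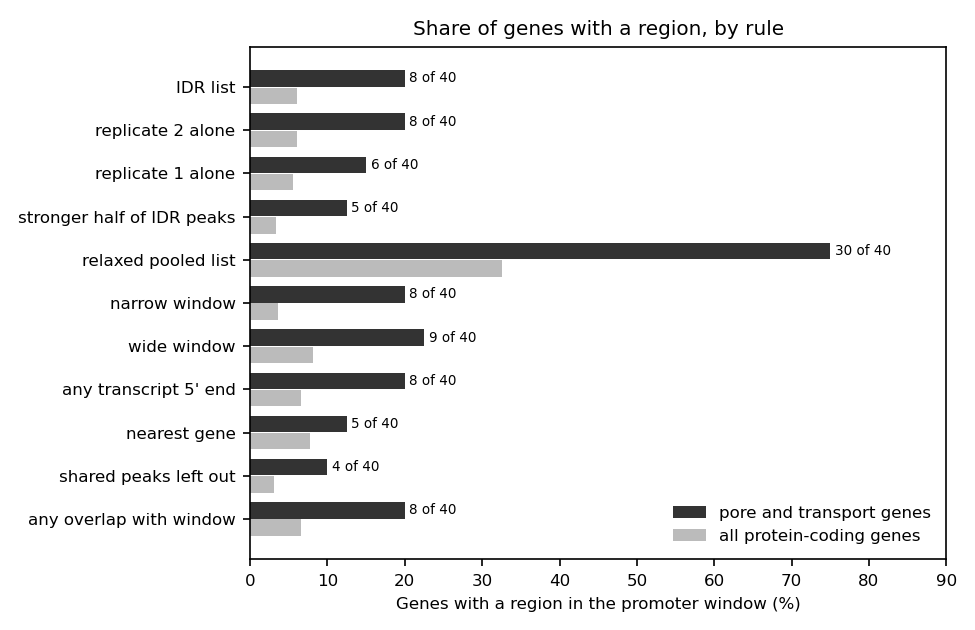
Share of genes in percent with a region under each rule for choosing regions and giving them to genes. The region lies in the promoter window except for the nearest gene, a rule with no window and no limit of distance. Dark bars are the 40 pore and transport genes, with their count, and light bars all 19973 protein-coding genes. The dark bar is longer under every rule drawn, with the smallest gap for the nearest gene (12.5%, against 7.74%).

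The members were spread over 5 chromosomes. An IDR peak was found at 4 of 13 members on chromosome I, 2 of 8 on II, 1 of 8 on III, 1 of 8 on IV and 0 of 3 on V, and X held no member. Over all genes the share was 7.85% on I, 5.65% on II, 9.39% on III, 5.24% on IV, 4.23% on V and 5.9% on X. The genes were longer than most, with a median of 3925.5 bp, against 2027 bp over all genes.

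The words at the summits were taken from the 1890 IDR peaks outside these promoters, as the 5 6-mers, among those present in at least 5% of these peaks, with the largest ratio of presence within 50 bp of the summit to presence in windows centred 300 bp away, counted on both strands. By that ratio GCGCGC came highest, then ACGCAG in second place, GACGCA next, AGACGC after it, and finally CGCGCC in the last place. Several overlap each other, so that a single stretch can hold 3 of them. At least 1 was present at 5 of the 8 member summits (62.5%), against 34.0% of the 1890 other peaks and 40.6% of the other promoter IDR peaks. In the flanks of the 1890 peaks the share was 5.61%. The words were chosen for that contrast of summits and flanks in the same peaks, so it is no separate result. In the printed stretches npp-3 held the words ACGCAG, then GACGCA, and also AGACGC in 1 run on the reverse strand, ran-5 held GACGCA across its summit, and npp-8 held CGCGCC. The imb-3 peak held ACGCAG as well as GACGCA and the imb-1 peak CGCGCC, while npp-13, npp-14 and npp-18 held none of the 5.

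Word by word, the members did not all follow the order of the other peaks. GACGCA was present at 3 of 8 (37.5%), against 17.7% of the others, ACGCAG at 2 (25%), against 17.3%, and CGCGCC at 2 (25%), against 7.88%. AGACGC was present at 1 (12.5%), against 15.4%, and GCGCGC at 0, against 6.77%. With 8 peaks a single peak moves a share by 12.5 percentage points. Of the 22 relaxed-only members 6 (27.3%) held a word, against 12.4% of the other relaxed promoter regions, among them ran-1, which held 3 of the 5. A match is a description of letters and not of a bound site. The words are rich in G and C. Within 50 bp of the summit the median GC content was 43.1% over the 30 member regions, against 38.6% over the 6511. For the 8 IDR peaks it was 45.5%, against 47.5% over the 1213. Whether base content or signal height accounts for the word shares was not tested.

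The npp-8 and npp-18 summits shared a longer run of bases, which was noticed after the sequences were seen. Of the 28 pairs among the 8 peaks, the longest common run with at most 1 mismatch on either strand within 75 bases of the summits had a median of 11 bases, and the pair of npp-8 and npp-18 had the longest at 19. The sites are IV:1596021-1596039 near npp-8 and III:13296689-13296707 near npp-18, at −26 to −8 and −11 to 7 bases from the summits. They differ by G14C, the npp-8 base first, counted from 1 at the 5' end of the run, and the capital marks that base. The run also shows in the full stretches of both genes printed above.
npp-8 run: ttgtccgagaggaGtacac
npp-18 run: ttgtccgagaggaCtacac

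With any base at that position the run was found in 9 of 1898 IDR peaks, 2 of which are the npp-8 and npp-18 peaks that defined it. Without that pair it was found in 7 of 1896 IDR peaks (0.369%), in 11 of 21146 other pooled regions (0.0520%) and in 0.0263% of the flanking windows of the IDR peaks. It was present 85 times in the genome and in 47 of the 19973 promoter windows (0.235%), of which npp-8 and npp-18 were the member windows. The pair of npp-14 and ran-5 shared the second longest run, of 15 bases, found in 4 of 1898 IDR peaks. Without the defining pair it was found in 2 of 1896 IDR peaks (0.105%) and in 2 of 21146 other pooled regions (0.00946%). In ran-5 it reads as follows from II:6047816-6047830, the capital marking the base at which npp-14 differs.
ran-5 run: caaGaagtgcgccag

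Other genes of the nuclear envelope and of RNA export were set beside the pore genes as a list of 30. Of these, 6 (20%) had an IDR peak, against 6.07% of all protein-coding genes, and 17 (56.7%) a pooled region, against 32.6%. So in these windows this list had the same IDR share as the 40 members and a lower pooled share than their 75%. The IDR shares were not equal under every other rule. IDR peaks were found at 4 of the 15 listed genes of messenger RNA export, whose cargo leaves through the pore, and at 2 of the 15 listed genes of the nuclear envelope. The THO complex genes thoc-7 (signal 118, at −778 bp, shared with the ribosomal protein gene rpl-29) and thoc-5 (78.6), the export receptor partner gene nxt-1 (91.2) and the helicase gene hel-1 (52.9) were the export genes. The envelope genes were emr-1 (62.2), the gene of the inner membrane protein emerin, and lpin-1 (56.5), the gene of lipin. The hel-1 peak had 41.2 in replicate 2 (rank 781) and 9.52 in replicate 1 (rank 19303), and it was shared with C26D10.4. The lamin gene lmn-1 and mel-28, the gene of a nucleoporin outside the name rule, had no pooled region.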

How the data were processed

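ZTF-4 ChIP-seq regions came from 2 biological replicates of 1 group. Each replicate and the pooled alignments were called by the authors with a control, and the IDR list was derived from the results, per the text records deposited with the files. Aligner, caller and IDR cutoff were not given in the sources used here. Region signal as deposited, the caller's own value, was used as it stood. The ce10 lists were not used. Coordinates are those of ce11, counted from 1.

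Members, gene lists, windows and alternatives were chosen with earlier results of these data known. Named are all members, genes sharing a member's IDR summit and listed companion genes with an IDR peak, with values for the 5 highest and 2 lowest relaxed-only members and for some others to complete a group. A replicate counterpart is the nearest summit within 100 bp. Summits were assigned to windows, annotations and words with Python 3.11.15 and numpy 2.4.6, and figures drawn with matplotlib 3.10.9. The assignment was tested on simulated summits. The alternatives were each replicate alone, stronger peaks, the pooled list, other windows, other 5' ends, other rules for shared peaks, other counterpart distances, and, chosen after seeing the data, 6-mers within 100 bp. Mitochondrial protein-coding genes were left out.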

Additional observations from a re-analysis of the deposited data

How the results depend on the processing

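Values are the authors' region heights, without read counts, and 2 replicates of 1 group allow no test over samples. No paired analysis was possible because there is 1 group and nothing to pair it with. The count of 8 members with an IDR peak ran from 6 to 8 with 1 replicate left out, was 5 among the stronger IDR peaks, 30 in the relaxed pooled list, 5 with the nearest gene only and 4 without shared peaks. The companion count of 6 ran from 4 to 7, was 3 among the stronger peaks and 17 in the pooled list. In the narrow window 13.3% of the companions had an IDR peak, against 20% of the members. With the nearest gene only, the shares were 20% and 12.5%. The share of all genes, 6.07%, ran from 5.53% to 6.06%, and was 3.41%, 32.6%, 3.6% in the narrow window and 3.15% without shared peaks. The stronger peaks, the narrow window and the omission of shared peaks leave fewer regions or positions by construction, and the pooled list more. The nearest-gene rule gave the imb-1, npp-14 and ran-5 peaks to neighbours whose 5' ends were closer. With single replicates only the 1898 strongest regions were kept. The npp-13 region ranked 2151 in replicate 1 and 2374 in replicate 2, imb-1 ranked 2787 in replicate 1, and ima-1 ranked 1850 in replicate 2. Why the replicates ranked these regions differently was not tested. The median member signal of 33.3 was 42.2 in the narrow window and 34.9 in the wide one, and the median summit position of −217.5 bp was −246 bp in the wide window. At 50 or 200 bp, or by any overlap, all 8 IDR peaks kept both counterparts. Within 100 bp of the summit, 5 of 8 peaks held a word, against 44.7% of the others.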

Other observations

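The nucleoporin gene rae-1, which the name rule does not take, had a relaxed region of pooled signal 14.9 at −330 bp, with 7.88 in replicate 2 and no counterpart in replicate 1. The npp-27 region, noticed after its values were seen, ranked 2503 in replicate 1 (signal 23.5) and 11485 in the pooled replicates (19.99). It had no counterpart in replicate 2. Signals of these lists are not on 1 scale, since the median was 11.1 in replicate 1 and 19.96 in the pooled replicates. The nearest IDR summit to npp-27 and to xpo-3 was the same, of signal 50.9, at 6738 and 20523 bp downstream of their 5' ends. The nearest IDR summit to ran-3, at −4039 bp, had a signal of 52.9 and was the hel-1 peak.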
